A study of Homo sapiens with 6 samples.

Results

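The genes described here lie along a stretch of the long arm of human chromosome 3, from SLC35A5 to ZNF148. The deposited gene table places them at 112280556 to 125094198, a span of 12.8 Mb in bands 3q13 to 3q21. Members were chosen by position: each listed gene with its start in this interval was taken, except PARP9, PARP14, DTX3L, HSPBAP1 and genes whose names begin with NDUF, ATP6V or MRP. This gave 44 of the 11844 genes in the table, and 6 genes were left out by name. The interval itself was picked because genes in it were lower with LINC00888 in these same libraries. The values below are therefore a description of the comparison that chose them, and no p-value is given for any member.

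RNA was measured by strand-specific polyA sequencing in C4-2B, a human prostate cancer cell line of the LNCaP lineage that was selected for growth without androgen. Stable sublines carried the empty pcDNA 3.1 vector (3 libraries) or pcDNA 3.1 with LINC00888, a long noncoding RNA (3 libraries), and all were kept in RPMI1640 with 10% FBS. Whether a group holds separate cultures or clones is not in the labels, so the spread between its libraries may be technical. Any other difference between the sublines cannot be told apart from LINC00888. Quantitative PCR on the same RNA gave LINC00888 at 15.27 ± 2.4 times the control, per the labels (SD, number of measurements not stated). The level of LINC00888 in the sequencing was not analysed here. Of 11 luminal prostate marker symbols 10 were listed, and the missing ACP3 is another name of the listed ACPP. They summed to 1150 to 1163 FPKM per library with the empty vector and to 1202 to 1222 FPKM with LINC00888. Of 6 basal markers 3 were listed (KRT14, ITGB4 and CDH3), at 4.70 to 5.03 against 5.58 to 5.92 FPKM. Both sums were higher in each LINC00888 library than in each control, and their part in the results below was not tested. The 4 of 10 fibroblast markers listed summed to 7.10 to 7.12 against 6.93 to 7.40 FPKM, and the 3 of 7 neuroendocrine markers to 9.58 to 12.1 against 10.4 to 12.8 FPKM. Of 5 endothelial and 8 leukocyte markers 1 each was listed, VWF and CD68, and neither reached 1 FPKM in any library.

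Neighbouring genes are transcribed one by one, yet they share stretches of chromatin and replicate at similar times. Some lie back to back and share the DNA between their start sites. A positional group therefore differs from a pathway: its members have unrelated roles and are joined by map position. The genes between SLC35A5 and ZNF148 take in parts of mitochondria, the Golgi, cilia, lipid elongation, nuclear import and transcription. LINC00888 is annotated on the same chromosome arm. In GRCh38, the build of the annotation used for this distance, it lies at chr3:183447608-183456013, 58.1 Mb beyond the far end of the stretch.

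Values are FPKM, the number of fragments scaled by the authors to transcript length and to the mapped fragments of the library. Differences were fitted as log2(FPKM + 0.5), LINC00888 minus empty vector, and a gene was counted as past the threshold when its adjusted p, over all genes tested, was under 0.05. All 44 members reached 0.5 FPKM in 3 or more libraries and were fitted. Of these, 32 had a lower estimate with LINC00888 and 12 a higher one, beside 42.9% lower estimates over all genes and 42.3% on the rest of chromosome 3. In such bulk RNA, fewer cells that express a gene and less RNA per cell cannot be told apart. Past the threshold were 8 lower members, EAF2, HACD2, CCDC58, STXBP5L, FAM162A, KPNA1, FSTL1 and UMPS. Over all 11726 genes fitted 5.46% passed in the lower direction, and on the rest of chromosome 3 it was 4.91% of 591. No member passed in the higher direction with limma (8.02% of all genes and 7.95% on the rest of chromosome 3 did). At an unadjusted p under 0.05, 5 members were higher and 14 lower, and the share of all genes at that cutoff was not counted. Because the stretch was selected on this contrast, these counts and shares are given without a test. The median log2 fold change was -0.08 over the members, 0.03 over the rest of chromosome 3 and 0.03 over all genes. The count of 8 rests on having all libraries: without empty vector library 1, 2 or 3 it was 4, 5 or 3, and without LINC00888 library 1, 2 or 3 it was 3, 4 or 5. HACD2 and FAM162A remained past the threshold in all 6 of these fits, FSTL1 and UMPS in none. KPNA1 passed only without LINC00888 library 3, and CCDC58 failed only without empty vector library 3.

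**Figure D1:**
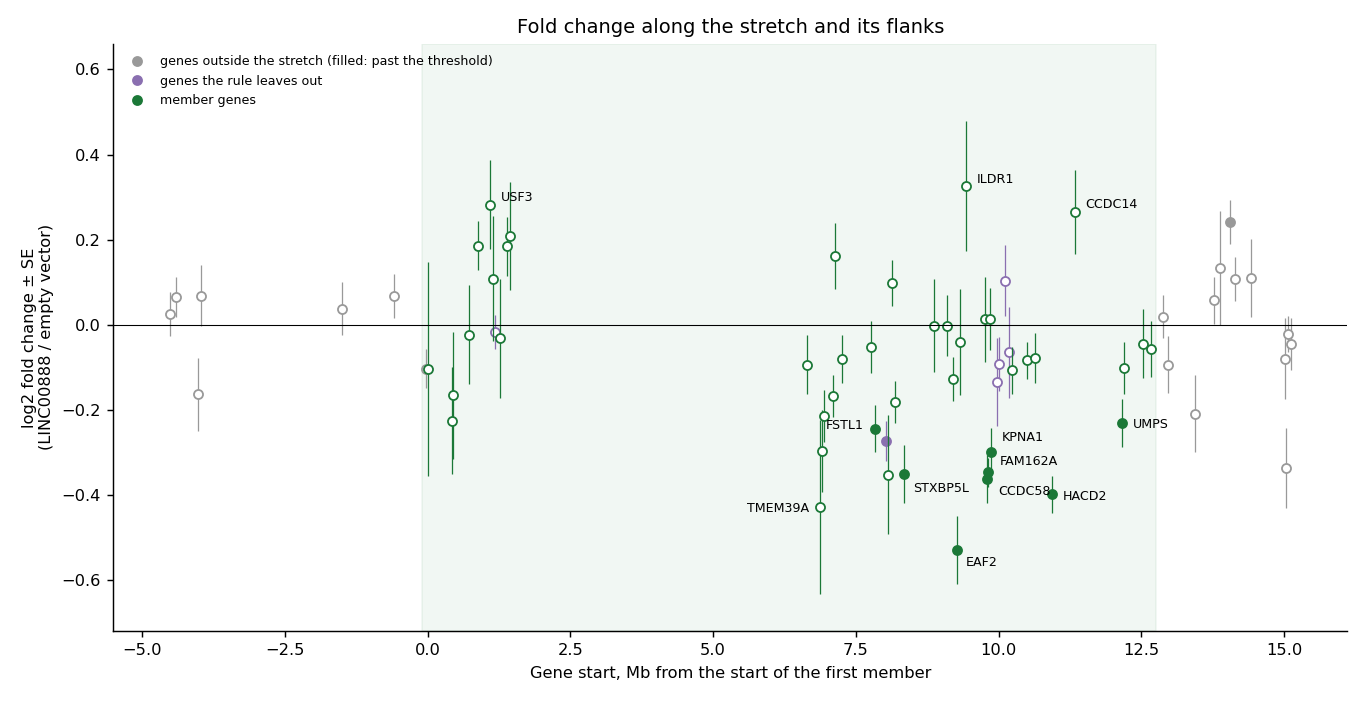
Fitted log2 fold change (points) with its SE (bars) against distance of the gene start from the start of SLC35A5, in Mb. Green points are member genes, purple points the genes left out by name and grey points genes outside the shaded stretch, and filled points passed the threshold. The 8 filled green points all lie beyond the gap that separates QTRT2 from B4GALT4.

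Members on either side of a gap in the stretch differed in their values, a split that was not tested. Between QTRT2 and B4GALT4 lay 5.12 Mb (113807270 to 118930578) in which the table lists no gene. Before this gap, 5 of 10 members had a lower and 5 a higher estimate, 0 passed the threshold and the median log2 fold change was 0.04. Beyond it, 27 of 34 were lower, 8 passed and the median was -0.10. Over all genes 42.9% had a lower estimate and 5.46% passed lower. Of those below 3.59 FPKM 31.8% had a lower estimate and 2.43% passed lower. The first 10 members, with 5 lower and 5 higher estimates, thus did not share the direction of the other 34. Those first 10 were also expressed at lower levels, with a median of 2.03 FPKM in the empty vector group against 6.65 FPKM for the other 34.

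All 4 genes listed under mitochondrion had lower estimates (72.7% of all members did), with non-overlapping groups, and 2 of them passed the threshold. Groups that did not overlap in the lower direction made up 14.8% of all genes and 24.7% of those above 10.3 FPKM, the level range in which all 4 lie. Past the threshold in the lower direction were 5.46% of all genes and 10.7% of that range. FAM162A, a mitochondrial membrane protein induced by hypoxia and linked to cell death, was at 57.4, 59.9 and 59.8 FPKM in the empty vector libraries and at 46.6, 45.3 and 46.9 FPKM with LINC00888. The groups did not overlap, and the LINC00888 libraries lay close together. The means were 59.0 ± 1.44 and 46.3 ± 0.86 FPKM (SD, n = 3), a 1.27-fold lower level. CCDC58, now named MIX23 after a protein of the mitochondrial intermembrane space studied in yeast, was at 29.9, 31.1 and 30.9 FPKM with the empty vector and at 21.9, 24.8 and 24.6 FPKM with LINC00888. All 3 LINC00888 libraries were below all 3 controls, a 1.29-fold difference of the means. TIMMDC1, an assembly factor of respiratory complex I, had values of 36.0, 37.8 and 33.8 against 29.1, 30.7 and 32.8 FPKM. COX17, the copper chaperone that supplies cytochrome c oxidase, had 29.02, 31.8 and 29.1 against 26.0, 26.3 and 27.5 FPKM. Neither TIMMDC1 nor COX17 passed the threshold, although the libraries of the groups did not overlap in either. The complex I subunit NDUFB4, which lies between FSTL1 and HGD and was left out by name, was at 83.4 ± 1.47 and 68.9 ± 3.9 FPKM and passed the threshold.

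Among regulators of transcription the largest difference of the stretch was found. EAF2, a partner of the ELL elongation factors that is known as an androgen-induced gene in prostate, was at 9.03, 9.15 and 7.68 FPKM with the empty vector and at 5.62, 5.67 and 6.12 FPKM with LINC00888. The highest LINC00888 library lay below the lowest control, and the log2 fold change was -0.53 (SE 0.08), a 1.49-fold lower level. Without LINC00888 library 1 this call was lost. GTF2E1, a subunit of the general factor TFIIE, was at 20.2, 18.7 and 19.4 FPKM against 16.3, 17.1 and 17.9 FPKM, lower in each LINC00888 library without passing the threshold. POLQ, the polymerase of error-prone end joining, was at 5.91 ± 0.70 and 5.89 ± 0.68 FPKM, so its groups were nearly identical and widely overlapping. The zinc finger protein ZNF148, the last member, was at 5.10 ± 0.40 and 4.87 ± 0.08 FPKM. USF3, a helix-loop-helix protein before the gap, had the opposite direction, with 1.48, 1.16 and 1.26 against 1.94, 1.55 and 1.58 FPKM. It did not pass the threshold.

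Of the 4 metabolic enzymes 2 passed the threshold, both lower, beside 5.46% of all genes in that direction. HACD2, a dehydratase of the fatty acid elongation cycle, was at 31.0, 29.6 and 30.1 FPKM with the empty vector and at 23.5, 21.7 and 23.3 FPKM with LINC00888. Its groups were far apart relative to their spread, with a log2 fold change of -0.40 (SE 0.04) and a 1.33-fold lower level. UMPS, which completes the synthesis of UMP and so feeds pyrimidine nucleotides, was at 7.11, 7.45 and 6.97 against 5.97, 6.39 and 5.77 FPKM. This 1.19-fold difference was the smallest among the 8 members that passed. HGD, an enzyme of tyrosine breakdown, was at 3.40, 2.37 and 2.87 against 2.505, 1.88 and 2.03 FPKM. Its mean was 1.35-fold lower, but the groups overlapped and it did not pass. The palmitoyltransferase ZDHHC23, before the gap, was higher in each LINC00888 library, at 4.94, 4.33 and 4.27 against 4.02, 3.89 and 3.799 FPKM, and did not pass.

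Of 5 members listed under translation, tRNA and nucleus 1 passed, in the lower direction, beside 5.46% of all genes. KPNA1, an importin alpha that carries proteins with a nuclear localisation signal, was at 12.9, 11.99 and 11.6 FPKM with the empty vector and at 9.84, 9.30 and 10.2 FPKM with LINC00888, a 1.24-fold lower level with no overlap. The GTP-binding protein GTPBP8 (1.98 ± 0.37 to 1.61 ± 0.16 FPKM) and its overlapping neighbour NEPRO (4.59 ± 0.64 to 4.06 ± 0.82 FPKM) had lower means, while QTRT2, which helps place queuosine in tRNA, had a higher one (1.08 ± 0.17 to 1.32 ± 0.22 FPKM). WDR5B, a relative of the chromatin protein WDR5, was at 4.19 ± 0.32 and 4.23 ± 0.22 FPKM. None of these 4 passed, and each had overlapping groups.

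Membrane traffic had 3 members, all with lower estimates, beside 42.9% of all genes and 72.7% of the members of the stretch. STXBP5L, a tomosyn that binds SNARE proteins and restrains secretion, was at 18.0, 15.4 and 17.4 FPKM with the empty vector and at 13.8, 12.7 and 12.96 FPKM with LINC00888. The groups did not overlap and the mean was 1.29-fold lower. Its call was lost without empty vector library 1 or 3 or any of the LINC00888 libraries. TMEM39A, a membrane protein of the endoplasmic reticulum, was at 7.33, 7.24 and 7.61 against 6.84, 3.73 and 5.99 FPKM. One library set most of this difference: the log2 fold change was -0.43 with all libraries and -0.19 without LINC00888 library 2. SEC22A, related to the SNARE proteins of transport between the endoplasmic reticulum and the Golgi, was at 6.13 ± 0.26 and 5.77 ± 0.29 FPKM.

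**Figure D2:**
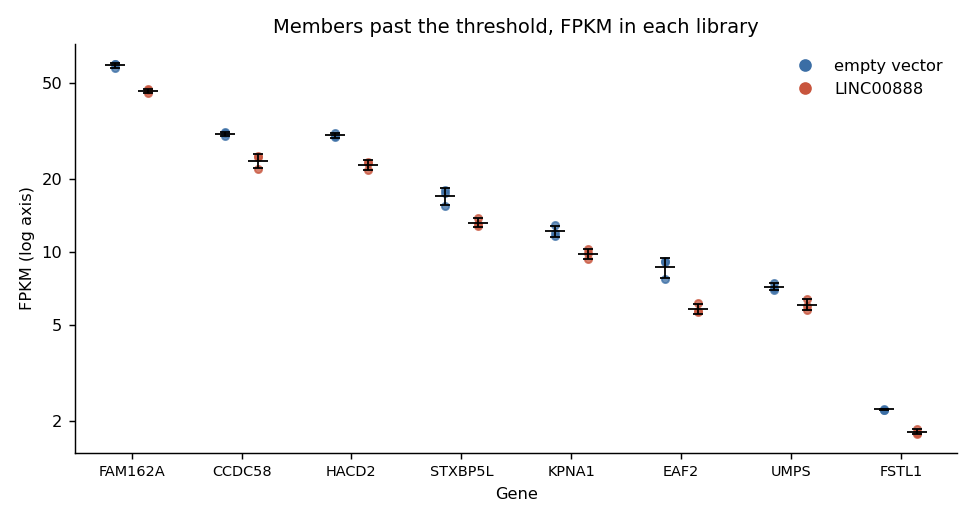
FPKM on a log axis in each library for the 8 members past the threshold, ordered by level, with the empty vector libraries in blue and the LINC00888 libraries in red. Black bars give the mean and SD of 3 libraries, and the groups do not overlap in any of the 8 genes, from FAM162A at 59.0 FPKM to FSTL1 at 2.23 FPKM in the empty vector group.

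Cell surface and secreted proteins had estimates in both directions, and 1 of 4 passed lower, beside 5.46% of all genes. FSTL1, a secreted glycoprotein of the follistatin family, was at 2.22, 2.25 and 2.22 FPKM with the empty vector and at 1.85, 1.79 and 1.77 FPKM with LINC00888. The spread within each group was small beside the 1.24-fold difference. The integrin subunit ITGB5 was at 6.10 ± 0.34 and 5.65 ± 0.24 FPKM with overlapping groups. ILDR1, a protein of the corners where 3 epithelial cells meet, had the highest log2 fold change of the stretch, 0.33, from 1.54, 0.892 and 1.30 to 1.53, 1.89 and 1.58 FPKM. This was 0.17 without empty vector library 2, in which ILDR1 was lowest, and the groups overlapped. ILDR1 did not pass.

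Genes listed under glycosylation and Golgi all had estimates below 0, that of GOLGB1 by only 0.0022 (SE 0.07). With limma 0 of 5 passed in either direction. Over all genes 42.9% had lower estimates, and 5.46% passed lower and 8.02% higher. In the stretch, which was chosen for lower genes, 72.7% of members had lower estimates. POGLUT1, which adds glucose to EGF repeats such as those of NOTCH receptors, was at 3.70, 3.54 and 2.95 against 2.51, 2.57 and 2.92 FPKM, a 1.27-fold lower mean. The disulfide isomerase PDIA5 was at 22.7 ± 0.25 and 21.4 ± 0.93 FPKM. Both had groups that did not overlap. The galactosyltransferase B4GALT4 (3.56 ± 0.25 and 3.30 ± 0.15 FPKM) and giantin, GOLGB1 (14.8 ± 0.78 and 14.8 ± 1.27 FPKM), overlapped. SLC35A5, of the nucleotide sugar transporter family, ran from 1.33 to 2.81 FPKM within the empty vector group alone, and its estimate of -0.10 changed sign without empty vector library 3 (0.10).

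Cilium and centrosome genes had 3 higher and 2 lower estimates. Of 5 members 3 were higher in every LINC00888 library than in every control: the centriole protein SPICE1 (2.79 ± 0.13 to 3.24 ± 0.028 FPKM), MAATS1, also known as CFAP91 (0.967 ± 0.094 to 1.14 ± 0.064 FPKM), and CCDC14 (5.98 ± 0.39 to 7.31 ± 0.95 FPKM). Over all genes this held for 23.5%, and for 29.7% of those below 3.59 FPKM, where SPICE1 and MAATS1 lie. IQCB1, a nephrocystin of the ciliary base, had a lower mean (19.3 ± 0.55 to 17.6 ± 0.98 FPKM) and CFAP44 was at 0.709 ± 0.14 and 0.688 ± 0.12 FPKM. None of the 5 passed the threshold. One of the 6 fitted CCDC14 transcripts stood apart in a single library, with 0.922, 0.453 and 0.927 FPKM with the empty vector and 0.934, 12.5 and 0.740 FPKM with LINC00888. Without LINC00888 library 2 the log2 fold change of the gene went from 0.26 to 0.17.

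The other members had small estimates. Among signalling proteins the kinase GSK3B was at 19.8 ± 0.64 and 18.7 ± 1.17 FPKM, the small GTPase RABL3 at 11.6 ± 0.33 and 12.5 ± 0.73 FPKM and the sterol transfer protein GRAMD1C at 0.727 ± 0.18 and 0.698 ± 0.15 FPKM. The acetyltransferase NAA50 was at 17.4, 19.0 and 18.2 FPKM with the empty vector and at 18.2, 24.9 and 16.7 FPKM with LINC00888, so that its estimate of 0.11 turned to -0.06 without LINC00888 library 2. The protease inhibitor CSTA (3.99 ± 0.53 and 4.02 ± 0.29 FPKM), the peptide transporter SLC15A2 (0.981 ± 0.20 and 0.937 ± 0.13 FPKM) and SLC12A8 (4.89 ± 0.42 and 4.73 ± 0.34 FPKM) had overlapping groups. LRRC58, one of the most abundant members, was at 53.3 ± 2.8 and 51.4 ± 3.3 FPKM. DIRC2, a lysosomal transporter also named SLC49A4, was at 5.92 ± 0.33 and 5.45 ± 0.050 FPKM with no overlap. Of the genes left out by name, PARP9, DTX3L, PARP14, HSPBAP1 and ATP6V1A had log2 fold changes of -0.13, -0.09, 0.10, -0.07 and -0.02, and none passed.

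**Figure D3:**
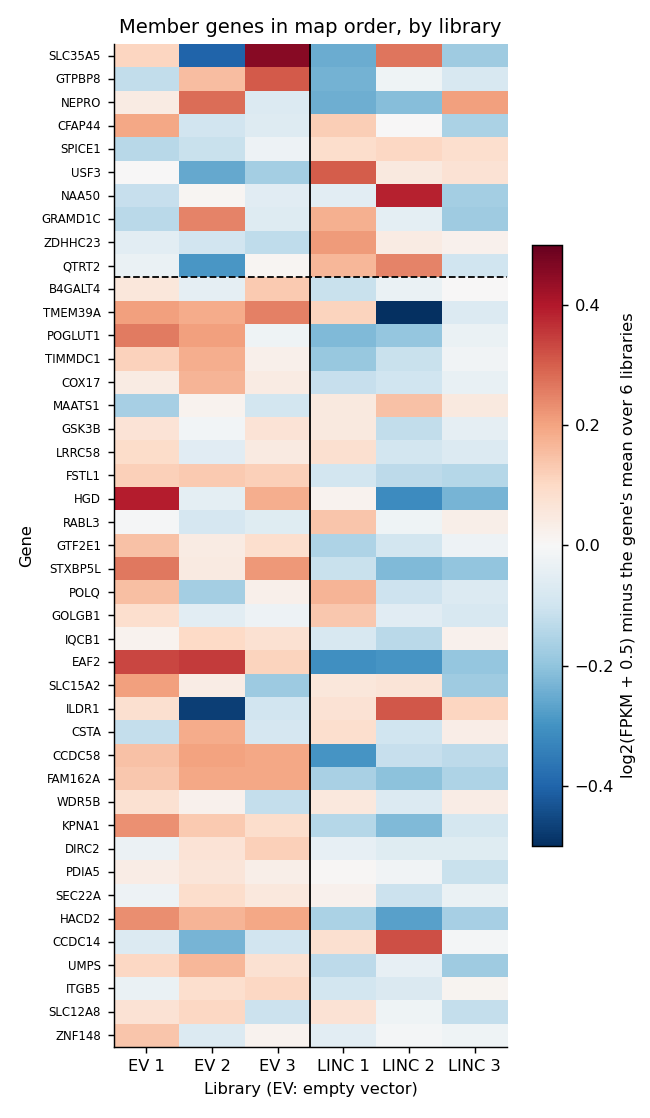
Member genes (rows, in map order) in each library (columns), as log2(FPKM + 0.5) minus the mean of the gene over the 6 libraries, with colours limited to 0.5 in either direction. Below the dashed line, which marks the gap, empty vector columns are mostly red and LINC00888 columns mostly blue. Single dark cells mark libraries that stand apart for one gene, such as TMEM39A and NAA50 in LINC00888 library 2.

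Counted without a threshold, 15 of 44 members were lower in every LINC00888 library than in every control, beside 14.8% of all genes and 15.6% of the rest of chromosome 3. Higher in this sense were 6 members, beside 23.5% of all genes and 22.8% of the rest of chromosome 3. All 15 lay beyond the gap. In the 10 Mb after the stretch, 30.8% of 52 genes were lower in this sense and 13.5% higher. In the 10 Mb before it, 10% of 10 genes were lower and 30% higher. Over all genes the share lower in this sense was 7.42% below 3.59 FPKM and 24.7% above 10.3 FPKM. Per library, the median deviation of the members from their own means was 0.07, 0.04 and 0.03 in the empty vector group and 0.01, -0.07 and -0.06 in the LINC00888 group, on the log2 scale. The groups did not overlap, but LINC00888 library 1 lay closer to the lowest control than to the other LINC00888 libraries. On the rest of chromosome 3 these medians ran between -0.02 and 0.00063 in the empty vector group and between 0.0091 and 0.03 in the LINC00888 group.

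Across all genes the fold change depended on expression level, and this was also visible in the stretch. Genes were split into 3 classes of equal size by their mean log2 value over all 6 libraries, with bounds at 3.59 and 10.3 FPKM. In the high class the median log2 fold change was -0.17 for 15 members, -0.02 for 191 genes on the rest of chromosome 3 and -0.02 for all genes. In the middle class it was -0.07 for 14 members and 0.03 on the rest of chromosome 3. The low class gave -0.03 for 15 members and 0.10 on the rest of chromosome 3. The members' medians were below those of the rest of the chromosome in each class. The interval was chosen for lower genes in this comparison, and whether the difference holds apart from that choice was not tested. The members that passed lower numbered 5 of 15 in the high, 2 of 14 in the middle and 1 of 15 in the low class. Over all genes the shares that passed lower also differed between the classes, with 10.7% in the high, 3.28% in the middle and 2.43% in the low class.

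Several members are arranged in divergent pairs, in which genes on opposite strands start within 1000 bases of each other and are transcribed away from a shared region. Both genes belonged to the stretch in 4 such pairs. CCDC58 and FAM162A start 945 bases apart in the deposited positions and had nearly equal log2 fold changes, -0.36 (SE 0.06) and -0.35 (SE 0.03). TMEM39A and POGLUT1, 108 bases apart there and 5348 bases by the first starts in RefSeq, had -0.43 (SE 0.20) and -0.30 (SE 0.10). IQCB1 and EAF2, 104 bases apart, had -0.13 (SE 0.05) and -0.53 (SE 0.08), and so differed by 0.40. RABL3 and GTF2E1, which overlap by 357 bases in the deposited positions and start 64 bases apart in RefSeq, had 0.10 (SE 0.05) and -0.18 (SE 0.05). The sign was shared in 3 of these 4 pairs, and in 22 of 44 pairs on the rest of chromosome 3. The median absolute difference within a pair was 0.24 there and 0.21 here. The stretch was chosen for lower genes, so a shared lower sign within its pairs is no separate result.

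**Figure D4:**
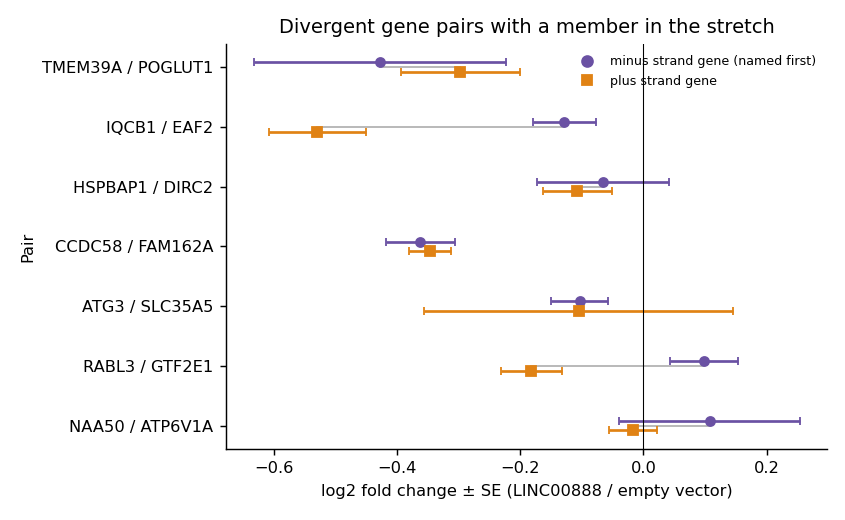
Fitted log2 fold change with its SE for both genes of each divergent pair that holds a member, the minus strand gene as a circle and the plus strand gene as a square. CCDC58 and FAM162A coincide near -0.35, whereas IQCB1 and EAF2 lie 0.40 apart.

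Sequences are shown for 2 divergent pairs, one with nearly equal and one with unequal fold changes, and for HACD2, which passed the threshold in each fit with a library left out. They lie at chr3:122383932-122384181 (FAM162A, plus strand), chr3:122383232-122383481 (CCDC58, minus strand), chr3:123585054-123585303 (HACD2, minus strand) and chr3:121835061-121835208 (between IQCB1 and EAF2, plus strand). They are from RefSeq on GRCh38.p14, for the first start listed for each gene, and run 5′ to 3′ on the strand of the gene (of EAF2 for the shared region). Capitals mark matches, on either strand, to a GC box, spelled GGGCGG, to the CCAAT box or to a YY1-type motif, spelled AAGATGGCG.
FAM162A: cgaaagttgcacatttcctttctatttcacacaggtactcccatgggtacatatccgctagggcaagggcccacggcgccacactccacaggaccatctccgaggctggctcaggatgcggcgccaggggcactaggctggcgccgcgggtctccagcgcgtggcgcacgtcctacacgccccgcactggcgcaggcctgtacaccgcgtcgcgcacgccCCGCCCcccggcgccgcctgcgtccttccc
CCDC58: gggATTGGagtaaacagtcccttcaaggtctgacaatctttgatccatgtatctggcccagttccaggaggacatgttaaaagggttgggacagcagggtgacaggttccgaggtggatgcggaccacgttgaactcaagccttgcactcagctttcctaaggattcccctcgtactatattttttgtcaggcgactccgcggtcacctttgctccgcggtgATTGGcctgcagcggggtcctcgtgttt
HACD2: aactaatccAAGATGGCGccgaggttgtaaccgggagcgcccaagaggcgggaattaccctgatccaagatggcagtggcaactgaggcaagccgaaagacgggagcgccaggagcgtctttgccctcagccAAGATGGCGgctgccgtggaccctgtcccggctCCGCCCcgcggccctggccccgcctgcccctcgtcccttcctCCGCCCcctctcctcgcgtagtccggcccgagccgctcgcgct
IQCB1-EAF2: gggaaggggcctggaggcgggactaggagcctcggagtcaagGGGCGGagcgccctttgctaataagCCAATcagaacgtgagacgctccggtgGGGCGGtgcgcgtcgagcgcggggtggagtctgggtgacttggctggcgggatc

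The FAM162A and CCDC58 sequences face each other across the pair and differ in composition, with 68.4% and 53.2% G or C. FAM162A holds a GC box and CCDC58 a pair of CCAAT boxes. The region between IQCB1 and EAF2 holds both kinds of box. HACD2 holds the YY1-type motif at 2 places. Any relation of these motifs or of the composition to the fold changes was not tested.

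Promoter windows of 300 bases, 250 before to 50 after the start, were found for 39 of 44 members. A GC box was in 25 of them (64.1%), beside 70.9% of 516 windows on the rest of chromosome 3 and 44.6% of all 27305 windows in the RefSeq table. The CCAAT box was in 38.5% of members' windows, 34.7% on the rest of the chromosome and 35.7% of all. An ETS core (CCGGAA) was in 38.5%, 31.4% and 17.6%. The YY1-type motif was in 2 members, HACD2 and GTF2E1 (5.13%, beside 4.26% and 1.85%). The 27305 windows include genes that were not fitted here. In 9472 windows of fitted genes, the GC box was in 71.7%, the CCAAT box in 37.4%, the ETS core in 31.4% and the YY1-type motif in 4.24%. The E box (CACGTG) was in 3 members, the CRE (TGACGTCA) in 2 and the TATA motif (TATAAA) in 2, with all of these searched on both strands. Among the 8 members past the threshold 6 held a GC box, 3 a CCAAT box and 1 an ETS core. Median G and C content was 63.7% for the members and 65.7% for the rest of chromosome 3.

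At the level of transcripts the table lists 95 for the members, from 1 transcript in 19 genes to 6 in the richest, and 84 were fitted. Transcript FPKM is per length of the transcript and does not add up to the value of the gene. Of the 84, 51 had a lower and 33 a higher estimate. On the rest of chromosome 3, 653 of 1344 transcripts had a lower estimate, and over all transcripts 13246 of 26941 did. The median log2 fold change was -0.10 in the stretch and 0.01 on the rest of chromosome 3. With limma 0 passed the threshold, and 102 of 26941 did over all transcripts. At an unadjusted p under 0.05 there were 10 lower and 1 higher in the stretch. The share of all transcripts at that cutoff was not counted. The only listed transcript of HACD2 and the most abundant one of FAM162A had lower values in each LINC00888 library: that of HACD2 was at 38.8, 37.1 and 37.8 against 29.4, 27.2 and 29.3 FPKM, and that of FAM162A at 128, 137 and 137 against 95.6, 101 and 108 FPKM. For KPNA1 the only listed transcript varied more than its gene. It was at 15.7, 13.01 and 6.12 FPKM with the empty vector and at 7.19, 9.92 and 5.42 FPKM with LINC00888, and these groups overlapped.

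The ends of the stretch were compared with their neighbours by value only. Just outside the near end, ATG3, which overlaps SLC35A5 on the other strand, was at 7.18 ± 0.15 and 6.65 ± 0.19 FPKM (log2 fold change -0.10), ABHD10 at 19.5 ± 0.99 and 20.5 ± 0.77 FPKM (0.07) and NECTIN3 at 1.89 ± 0.10 and 1.95 ± 0.047 FPKM (0.04). The first member inside, SLC35A5, had -0.10. Just inside the far end ZNF148 had -0.06, and outside it SNX4 had 0.02, OSBPL11 -0.09 and SLC41A3 -0.21. None of these 6 outer genes passed the threshold.

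Lower medians continued beyond the far end. In successive windows of 10 Mb after the stretch the median log2 fold change was -0.06 over 52 genes, -0.06 over 28, -0.05 over 21 and -0.03 over 21, and then 0.03 over 20. In the first of these windows 32 of 52 genes had a lower estimate, 5 passed lower and 2 higher. The 10 Mb before the stretch held 10 genes, of which 8 had a higher estimate and 0 passed with limma, with a median of 0.07. The median of the stretch was the lowest among the 18 windows of at least 10 genes, the stretch counted as one. The interval was chosen for lower genes in this comparison, so its own rank is no separate result. The 4 windows that follow it ranked 3, 2, 4 and 5, and the later ones 11, 8, 6 and 18. The boundary of the stretch at ZNF148 was thus not a point where the medians returned to those of the rest of the chromosome.

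**Figure D5:**
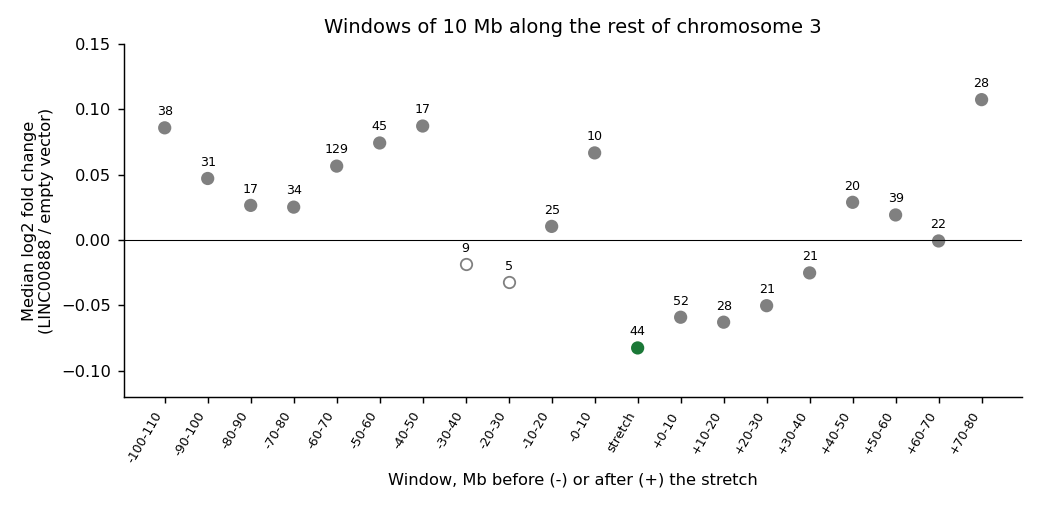
Median log2 fold change in windows of 10 Mb counted outward from both ends of the stretch (green), with the number of fitted genes above each point and open points for windows under 10 genes. The stretch is at -0.08, and the 4 windows after it lie between -0.06 and -0.03.

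Some features of the annotation bear on single values. GTPBP8 and NEPRO, RABL3 and GTF2E1, FAM162A and WDR5B, and SLC35A5 and ATG3 overlap on opposite strands, and PDIA5 and SEC22A on the same strand. Whether counting used the strand is not given in the sources used here, so reads of such partners may be shared. NAA50, COX17 and CCDC58 have named pseudogenes (2, 1 and 4) that could take or lend reads. In GRCh38, 87 protein-coding genes are annotated between the outermost members, 50 of which are in the table used here. Median gene span was 55.4 kb in the stretch, 42.1 kb on the rest of chromosome 3 and 31.0 kb over all genes.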

How the data were processed

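RNA was measured in 6 libraries, 3 per group, read as paired ends for 150 cycles. FPKM values of genes and transcripts were computed and deposited by the authors. FastQC, cutadapt, HISAT2 and StringTie are named without versions in the submitters' processing notes, which give GRCm38, a mouse build, although the features are human. Positions are printed as deposited, with no build given in the table. The tables hold no counts, so depth is unknown and counting intervals cannot be given. Gene FPKM added up to 211148 to 217637 in each library.

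Features that reached 0.5 FPKM in 3 or more of 6 libraries were kept (11726 of 11844 genes, and 26941 of 29964 transcripts). Values were taken as log2(FPKM + 0.5), which understates the change of low genes, and were fitted with limma 3.58.1 (lmFit, then eBayes with trend and robust, R 4.3.3), as a 2-sided test, with Benjamini-Hochberg adjustment over all genes and a threshold of 0.05. The procedure was tested on simulated data. Folds are ratios of mean FPKM. Named members, among those at 1 FPKM or more in a group, were the 12 lowest, the 6 highest and the 4 nearest 0 by log2 fold change, the 3 at either end with 3 neighbours outside, and the 2 most abundant of each role list. The others are named to account for the members, after their values were seen. One member counts in the totals but is not reported here by itself, in text or figures. Members and lists were chosen with earlier results of these data known. GENCODE 29 positions were matched by Ensembl identifier, and promoters (RefSeq, GRCh38.p14) by current symbol and chromosome. Alternatives changed the pseudocount, filter, scaling, variance model, replicate block, libraries and members. A transcript line without content was skipped.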

Additional observations from a re-analysis of the deposited data

How the results depend on the processing

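Depth is unknown, and 3 libraries per group limit what can be called. The 8 members past the threshold were the same 8 with pseudocounts of 0.1 and 1, no filter, a filter at an FPKM of 1, quantile normalization, cyclic loess and eBayes without trend and robust, and GTF2E1 joined them after median ratio scaling. Leaving out 1 library gave 3 to 5 genes called in the stretch, 27 to 43 on the rest of chromosome 3 (76 with all libraries) and 536 to 815 over all genes (1581 with all libraries, 941 higher and 640 lower). The median of the stretch was -0.13 after quantile normalization and -0.14 after cyclic loess. The median of the rest of chromosome 3 was 0.00045 after median ratio scaling, 0.0024 after quantile normalization and 0.0015 after cyclic loess, and -0.032 for genes within 10 Mb of the stretch. Median ratio scaling gave 750 higher and 844 lower calls over all genes, quantile normalization gave 688 and 648, and cyclic loess gave 686 and 669. Lower estimates in the stretch numbered 32 to 34 of 44 under these scalings. The median over all genes went from 0.031 to -0.00031 with median ratio scaling, 0.0010 with quantile normalization and -0.0017 with cyclic loess. The share of lower estimates over all genes was not counted under them, so 42.9% is not their background. With the genes left out by name 9 of 50 passed.

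Replicate numbers were shared between the groups, but same-numbered libraries did not deviate together (correlations of 0.038, 0.022 and -0.035), and not every library correlated best with its own number. Fitted with a block for the replicate number, 4 members passed in the stretch (CCDC58, FAM162A, HACD2 and STXBP5L), 21 on the rest of chromosome 3 and 429 over all genes.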
